A study of Homo sapiens with 148 samples.

Results

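The genes described here encode the proteins of the cytosolic ribosome, and they were followed through 6 stages of the differentiation of human embryonic stem cells toward pancreatic β cells. Members were chosen by gene name alone: a name of RPL or RPS, a number and at most a closing A or X, together with RPLP0, RPLP1, RPLP2 and RPSA. This rule found 77 of the 49085 names in the table, 46 for the large ribosomal subunit and 31 for the small subunit. FAU, which encodes a ribosomal protein fused to a ubiquitin-like protein, falls outside the rule and is given beside it.

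All cells came from H9, an established human embryonic stem cell line of wild-type genotype, and every stage after the undifferentiated one carries the label of pancreatic differentiation. The stages were undifferentiated hESCs, definitive endoderm (DE) at day 4, primitive gut tube (PGT) at day 7, pancreatic progenitors (PP) at day 14, a stage labelled PH whose meaning and day are not given in the sources used here, and organoids of β cells made from the stem cells (SC-β) at day 35. RNA-seq was made from 2 libraries a stage, and the deposited value of a gene is the mean over them in TPM, a level corrected for transcript length and scaled so that every stage adds up to the same total. The spread between the libraries is therefore not known here, no difference below carries an error or a test, and the depth of each library is not known from the table. Every stage comes from a single cell line, and every ratio to hESCs uses the same hESC values.

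The labels were checked against defining markers. POU5F1, a pluripotency factor, stood at 1449 TPM in hESCs and at 0.377 TPM in SC-β, SOX17 peaked in DE at 96.1 TPM, HNF4A peaked in PGT at 33.7 TPM, and INS reached 298 TPM and GCG 2793 TPM in SC-β. In PH, PDX1 stood at 0.0173 TPM and NKX6-1 at 0.256 TPM, below their levels of 3.17 and 2.204 TPM in PP. Endocrine markers were present in PH, with INS at 6.86 TPM, GCG at 27.2 TPM and CHGA at 70.0 TPM. In PP these stood at 6.93, 16.5 and 215 TPM. PH also held the neural markers HES5, LHX5 and FABP7 at a summed 182 TPM, against 0.328 to 11.2 TPM in the other stages, and the mesenchymal markers TWIST1, COL1A1 and COL3A1 at a summed 417 TPM, against 8.61 to 28.7 TPM in hESCs, DE, PGT and PP and 895 TPM in SC-β. PECAM1, an endothelial marker, was below 1 TPM in every stage, at most 0.430 TPM. The part of these other cell types in the values of PH and SC-β was not tested. In bulk RNA, fewer cells of a type and less RNA per cell cannot be told apart.

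Ribosomal proteins wrap the ribosomal RNAs and are needed in near-equal numbers, since a ribosome holds a single copy of most of them. In mammals many of their mRNAs begin with a C followed by an uninterrupted run of pyrimidines, the terminal oligopyrimidine tract, through which their translation is tied to nutrient and growth signalling. Ribosomal protein mRNAs are among the most abundant in growing cells, and mutations in several of the genes cause Diamond-Blackfan anaemia, a failure of red cell production.

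The start sites show this shared feature. Of the 77 genes, 62 had an entry in the RefSeq promoter table (GRCh38.p14), and 46 of these (74.2%) had a listed start at a C that opens a run of 5 or more C or T, against 5.14% of all 27305 symbols in that table. Where a gene has several listed starts, the one with the longest run was taken. The genes printed here are RPS27 and RPL11, the most abundant members, then RPS16, RPS26, RPS3A and RPL10, which departed widely from the members' median, RPS3 and RPS4X, with ratios to hESCs among the lowest and the highest, and RPL9, RPL19 and RPL38, which stayed nearest to the median. Each window spans 15 bases before and 15 bases from the start on the gene's strand, with the whole run of C and T that holds the start base in capitals.
RPS27: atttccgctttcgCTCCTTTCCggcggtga
RPL11: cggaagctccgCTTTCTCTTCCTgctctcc
RPS16: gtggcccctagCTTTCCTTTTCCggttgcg
RPS3: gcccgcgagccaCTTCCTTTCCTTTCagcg
RPS3A: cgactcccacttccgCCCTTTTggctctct
RPL10: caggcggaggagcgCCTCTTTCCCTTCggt
RPL38: aacggaagtctcgTTCTTTTTCgtcctttt
RPL19: gagcgagCTCTTTCCTTTCgctgctgcggc
RPS26: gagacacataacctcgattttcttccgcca
RPS4X: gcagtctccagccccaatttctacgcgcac
RPL9: gtacgtaatgacgacagacgttctttcttt
The windows lie at chr1:153990747-153990776 (RPS27, plus strand), chr1:23691791-23691820 (RPL11, plus strand), chr19:39435935-39435964 (RPS16, minus strand), chr11:75399503-75399532 (RPS3, plus strand), chr4:151099613-151099642 (RPS3A, plus strand), chrX:154398362-154398391 (RPL10, plus strand), chr17:74203663-74203692 (RPL38, plus strand), chr17:39200308-39200337 (RPL19, plus strand), chr12:56041903-56041932 (RPS26, plus strand), chrX:72277234-72277263 (RPS4X, minus strand) and chr4:39458908-39458937 (RPL9, minus strand). RPS26, RPS4X and RPL9 have no capitals because the base at the listed start is not a pyrimidine. Runs of 5 or more C or T lie a few bases further on in each. RPL19 has capitals but is not among the 46 genes either. Its listed start is a T inside the run, with only 4 bases of the run from there on. The genes with and without the run had close median log2 ratios to hESCs, -1.15 over 46 genes and -1.27 over 16 genes in PH, and -0.43 and -0.49 in SC-β.

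Motifs were searched on both strands of the whole window of 250 bases before and 50 bases after the start. TTCCGG was found in 35 of the 62 genes (56.5%) against 20.1% of all symbols, and CCGGAAG, which overlaps the reverse complement of TTCCGG, in 22 genes (35.5%) against 12.2%. GGAAGT was found in 26 genes (41.9%) against 26.6%, CTTTCC in 30 genes (48.4%) against 30.2%, CTTTTC in 21 genes (33.9%) against 24.6%, and CTTCC in 58 genes (93.5%) against 75.4%. TATAAA was found in 5 genes (8.06%) against 13.99%, and CACGTG in 4 genes (6.45%) against 8.77%. Several of these motifs overlap each other in letters, and a match is a description of the sequence.

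Together the 77 genes held 7.53% of all TPM in hESCs. Their share was 5.95% at DE, 6.99% at PGT, 5.24% at PP, 3.29% at PH and 5.48% at SC-β, so that hESCs stood highest and PH lowest. The median level of a member followed the same order, from 849 TPM in hESCs through 659, 766 and 573 TPM in DE, PGT and PP to 362 TPM in PH and 621 TPM in SC-β. All 77 genes were at 100 TPM or more in hESCs, DE, PGT and PP, 74 in PH and 75 in SC-β.

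A share of TPM depends on what fills the rest of the total. Here 6 names of abundant structural RNAs (RMRP, RPPH1, RN7SK, RN7SL1, RN7SL2 and Metazoa_SRP) held 39.0% of the TPM in hESCs, 31.8% at DE, 36.9% at PGT, 42.2% at PP, 50.9% at PH and 33.9% at SC-β. Without these names in the total, the ribosomal protein genes held 12.3% in hESCs, 8.74% at DE, 11.1% at PGT, 9.07% at PP, 6.69% at PH and 8.30% at SC-β. PH remained lowest and hESCs highest, and PP then stood above DE.

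**Figure D1:**
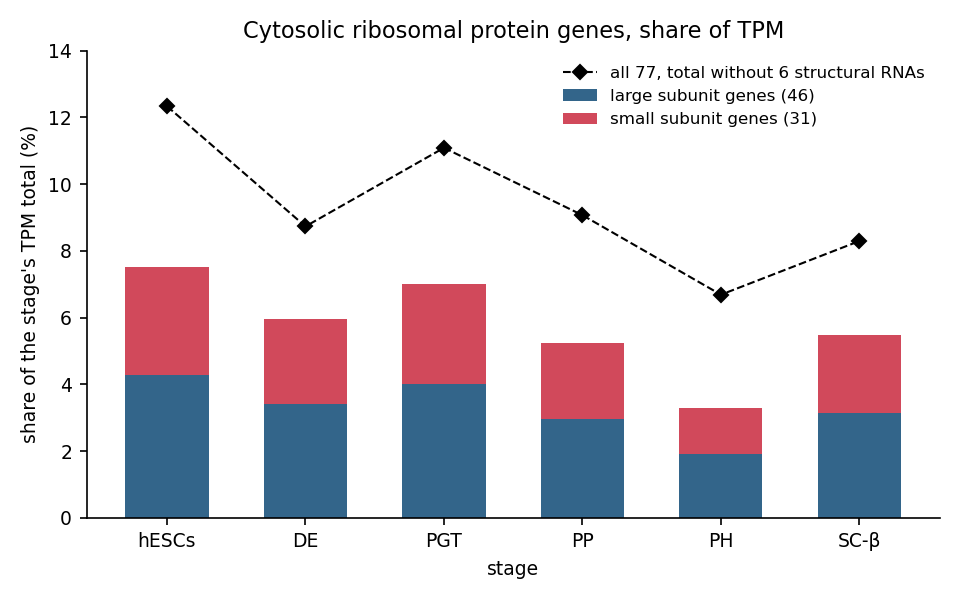
Share of the stage's TPM total (%) held by the large subunit genes (blue) and small subunit genes (red), stacked, for each stage on the x axis; diamonds show all 77 genes when 6 structural RNA names are left out of the total. The stacked bar falls from 7.53% in hESCs to 3.29% in PH, and the diamonds from 12.3% to 6.69%.

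On the deposited TPM scale, the genes moved in a common pattern from stage to stage. From hESCs to DE, 71 of 77 were lower and 6 higher, the latter being RPL29, RPLP1, RPS19, RPS2, RPS3A and RPS4X. From DE to PGT, 61 were higher, and from PGT to PP, 75 were lower, with RPS15 and RPS26 the exceptions. From PP to PH, 74 were lower and RPL10, RPL13 and RPL37 higher, and from PH to SC-β, 76 were higher and RPL37 lower. Between PP and SC-β the members split, 45 higher in SC-β and 32 lower. By level, 51 genes stood highest in hESCs, 19 in PGT, 4 in DE and 3 in SC-β (RPL13, RPL23 and RPS3A), while 74 were lowest in PH. The rank order of the 77 levels was largely kept, with Spearman's rho to hESCs of 0.942 in DE, 0.942 in PGT, 0.942 in PP, 0.865 in PH and 0.909 in SC-β over the 77 genes, which share libraries and transcript models at each stage.

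Ratios to hESCs were taken as log2((TPM + 1) / (TPM in hESCs + 1)), on which -1 is 2-fold lower. The median over the members was -0.34 in DE, -0.11 in PGT, -0.51 in PP, -1.14 in PH and -0.47 in SC-β. At the 2-fold limit, 1 gene was lower in DE (RPS3), 1 in PGT (RPS26), 3 in PP (RPS3, RPS16 and RPS26), 51 in PH and 8 in SC-β, and 0 were higher in any stage. Among all names at 1 TPM or more in either stage, 5.55% were at least 2-fold lower in DE, 10.0% in PGT, 9.63% in PP, 18.9% in PH and 7.08% in SC-β, while 28.2%, 23.4%, 18.9%, 27.3% and 42.4% were at least 2-fold higher. The medians over these names were 0.58, 0.41, 0.31, 0.28 and 0.83. The counts of members rest on the scale of the totals. With structural RNAs left out of the total, 24 genes in place of 51 were at least 2-fold lower in PH. After rescaling by the median ratio over 13938 names, 22 genes passed 2-fold at DE, 6 at PGT, 18 at PP and 37 at SC-β. In PH, 29 large and 23 small subunit genes passed it after rescaling. The share of all names past the limit was not computed on these scales. The members' median stayed below hESCs in every stage on each of these scales.

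Most of those names have low levels, so names at a mean of 100 TPM or more, members included, give the closer background. Of these, 7.80% were at least 2-fold lower in DE, 14.2% in PGT, 14.1% in PP, 48.3% in PH and 18.0% in SC-β. Without the members, the shares were 8.50%, 15.6%, 15.2%, 46.4% and 18.8%, against 1.30%, 1.30%, 3.90%, 66.2% and 10.4% of the ribosomal protein genes. On the deposited scale, the members' share was below that of the other abundant names in DE, PGT, PP and SC-β, and above it in PH. The shares of the other names were not computed on the other scales, where the members' counts differ. The medians ran differently: that of the other abundant names was -0.00141 in DE, -0.16 in PGT, -0.25 in PP, -0.90 in PH and -0.28 in SC-β, so the members' median was the lower one in every stage but PGT. Whether any of these gaps exceeds the spread between libraries was not tested.

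Between neighbouring columns of the table, in which PH stands between PP and SC-β although its day is not given, few genes passed 2-fold. Of all names, 4.94% were at least 2-fold higher in PGT than in DE and 0 members were; 7.46% were at least 2-fold lower in PP than in PGT and again 0 members were. From PP to PH, 7 members were at least 2-fold lower beside 12.8% of all names, and from PH to SC-β, 14 members were at least 2-fold higher beside 28.1%.

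**Figure D2:**
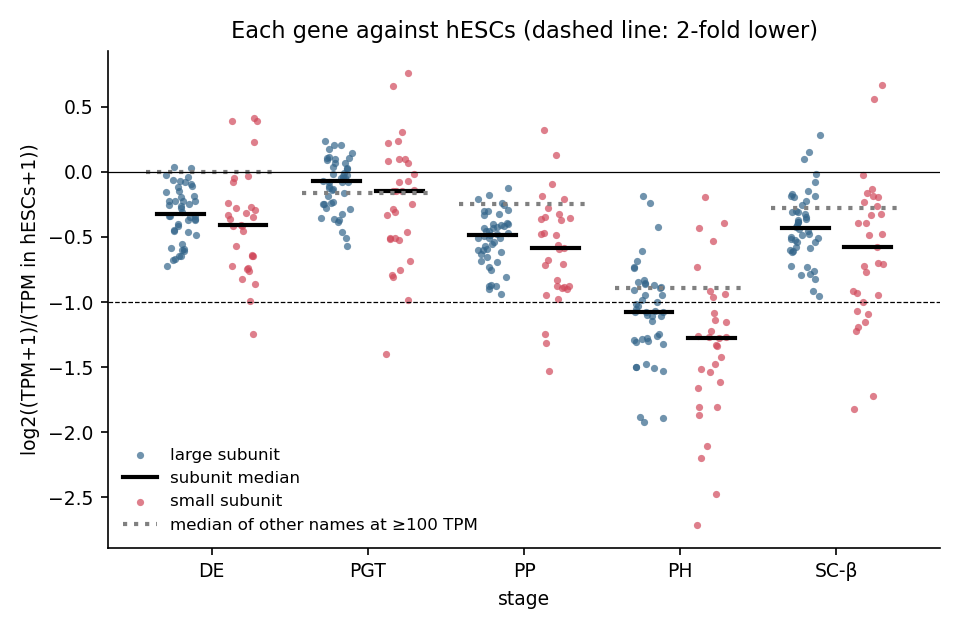
Log2 ratio of TPM to hESCs (y axis, pseudocount of 1) for each gene by stage (x axis), with large subunit genes in blue, small subunit genes in red, black bars at each subunit's median and a dotted grey line at the median of other names at 100 TPM or more. Points below the dashed line are at least 2-fold lower; outside PH all of them are small subunit genes on the deposited scale, while after median-ratio rescaling 20 large and 17 small subunit genes passed the limit in SC-β.

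The 46 large subunit genes added up to more TPM than the 31 small subunit genes in every stage. The ratio of the sums was 1.32 in hESCs, 1.34 at DE, 1.34 at PGT, 1.31 at PP, 1.41 at PH and 1.33 at SC-β, a narrow range with PH at its upper end. These sums cover unequal numbers of genes. The ratio of the mean levels per gene was 0.89, 0.90, 0.90, 0.88, 0.95 and 0.90 in the same order. A small subunit gene thus stood higher on average in every stage. The ratio of the median levels was 0.88, 0.97, 0.96, 1.05, 1.16 and 0.98, above 1 in PP and PH only. The median ratio to hESCs was lower for the small subunit in every stage, at -0.41 against -0.32 in DE, -0.15 against -0.07 in PGT, -0.59 against -0.49 in PP, -1.28 against -1.07 in PH and -0.58 against -0.43 in SC-β. All genes past the 2-fold limit in DE, PGT, PP and SC-β belonged to the small subunit, and in PH 28 of 46 large and 23 of 31 small subunit genes passed it. That split by subunit depends on the scale. After median-ratio rescaling 10 large and 12 small subunit genes passed the limit in DE, 0 and 6 in PGT, 7 and 11 in PP, and 20 and 17 in SC-β. Without structural RNAs in the total, 0 large and 3 small subunit genes passed it in DE, 0 and 2 in PGT, 0 and 3 in PP, and 2 and 11 in SC-β. In PH, 29 of 46 large and 23 of 31 small subunit genes passed it after rescaling, and 9 and 15 without structural RNAs. The small subunit's median stayed lower in every stage on both scales. Each scale multiplies a whole stage by a single factor, so it could not change that order, and this is no separate check. The 8 genes of SC-β were RPS3, RPS14, RPS16, RPS20, RPS26, RPS27A, RPS29 and RPSA. RPS27A lay at the limit, with a log2 ratio of -1.003, and RPL15 just outside it, at -0.95. The pseudogene entries of RPS20 summed to 157 TPM in hESCs and 133 TPM in SC-β. With these added, RPS20 was less than 2-fold lower in SC-β, so its place among the 8 is uncertain.

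RPS16 departed furthest from the group. It encodes a protein of the small subunit head, lies at chr19:39433137-39435949 on the minus strand, and stood at 341 TPM in hESCs, 218 at DE, 194 at PGT, 117 at PP, 51.2 at PH and 95.7 at SC-β. Its level was lower at each stage from hESCs to PP, and SC-β lay above PH but below PP. The log2 ratio was -2.71 in PH and -1.82 in SC-β, 1.58 and 1.35 below the members' median. Its pseudogene entries summed to at most 6.82 TPM in any stage.

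RPS26 had a similar course. Its protein sits where mRNA leaves the ribosome, and the gene is mutated in Diamond-Blackfan anaemia. It lies at chr12:56041351-56044697 on the plus strand. Its level was 320 TPM in hESCs, 161 at DE, 120 at PGT, 128 at PP, 56.7 at PH and 96.4 at SC-β. Unlike RPS16, it had already reached a log2 ratio of -1.40 by PGT. It has 22 pseudogene entries in the table, with a sum of 11.3 to 21.6 TPM a stage, so its level is uncertain where reads could be shared with them.

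RPS3, which lines the channel where mRNA enters and also has a role in DNA repair, stood at 849 TPM in hESCs, 357 at DE, 430 at PGT, 358 at PP, 184 at PH and 363 at SC-β. Most of its difference was present at DE, the stage in which it alone was past 2-fold (log2 ratio -1.25), and DE, PP and SC-β were nearly level.

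RPS3A and RPS4X, both of the small subunit, went against the group. RPS3A stood at 510 TPM in hESCs, 670 at DE, 804 at PGT, 557 at PP, 447 at PH and 811 at SC-β. RPS4X, an X-linked gene at chrX:72255679-72277248 on the minus strand, stood at 917, 1205, 1550, 1147, 634 and 1355 TPM in the same order. Both were above hESCs in every stage but PH, and in SC-β their log2 ratios were 0.67 and 0.56. After median-ratio rescaling these were 0.15 and 0.04, and in DE both fell on the other side of hESCs, at -0.09 each, as did RPS3A in PP at -0.12. RPS3A has 29 pseudogene entries, which summed to 59.5 to 134 TPM a stage, and RPS4X has 19, which summed to 19.0 to 52.1 TPM, so reads shared with near-identical copies make both levels uncertain.

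RPL10 and RPL37 of the large subunit stood apart in PH. RPL10, whose loading is among the last steps of large subunit maturation, was at 612 TPM in hESCs, 509 at DE, 501 at PGT, 380 at PP, 517 at PH and 605 at SC-β. RPL37 was at 265, 210, 293, 168, 233 and 182 TPM. In PH their log2 ratios were -0.24 and -0.18, while the members' median was -1.14. RPL37 has 6 pseudogene entries, which summed to 32.3 TPM in PH and to 54.99 to 87.2 TPM in the other stages, so its level is uncertain where reads could be shared with them. RPL9, RPL19 and RPL38 stayed nearest to the group, with departures spanning 0.20 on the log2 scale for each.

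**Figure D3:**
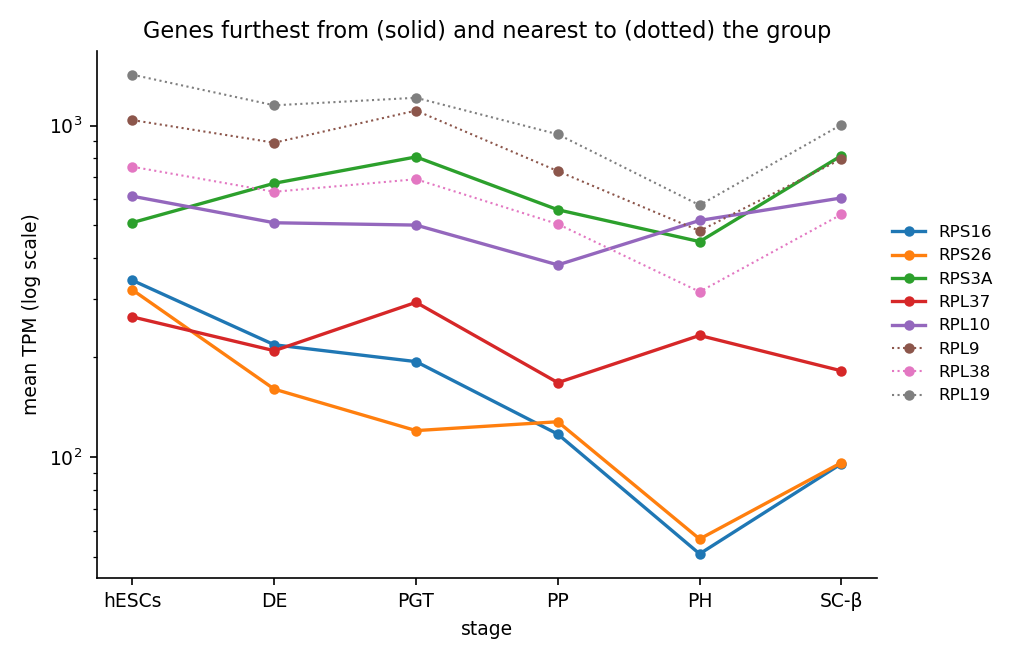
Mean TPM (y axis, log scale) by stage (x axis) for the 5 genes whose log2 ratio ranged furthest from the members' median (solid lines) and the 3 that stayed nearest to it (dotted lines). RPS16 falls from 341 to 51.2 TPM between hESCs and PH, while RPL10 is higher in PH than in PP.

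RPS27, a zinc-binding protein of the small subunit, was the most abundant member on average, at 2527 TPM in hESCs, 1986 at DE, 2397 at PGT, 1951 at PP, 1317 at PH and 1921 at SC-β. RPL11, RPS24, RPS18, RPL13A and RPL41 were also among the members of highest mean. RPL41, which encodes a very short peptide and is the sum of 2 entries, stood at 1663 TPM in hESCs and 575 TPM in PH, the largest step among all members from PP to PH, at -1.29 on the log2 scale. The members of lowest mean were RPL14, RPS26, RPL28, RPS16 and RPS28. RPL14 ranged from 96.9 TPM in PH to 181 TPM in hESCs, RPL28 from 109 to 182 TPM between the same stages, and RPS28 from 109 TPM in PH to 282 TPM in PGT.

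RPS19 had the highest ratio to hESCs in DE, at 0.41, with 438 TPM there, 329 TPM in hESCs and 250 TPM in PH, although rescaling brought that ratio to -0.07. It is the gene most often mutated in Diamond-Blackfan anaemia. Of 16 members mutated in that anaemia, 13 were at least 2-fold lower in PH and 2, RPS26 and RPS29, in SC-β, beside 66.2% and 10.4% of all members. The medians of these 16 genes were -1.27 and -0.48, beside -1.14 and -0.47. RPL23, a large subunit protein that also binds the p53 regulator MDM2, had the highest ratio of the large subunit in SC-β, at 0.28, or -0.24 after rescaling.

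The stalk of the large subunit recruits elongation factors. Its base protein RPLP0 stood at 1243 TPM in hESCs, 777 at DE, 961 at PGT, 847 at PP, 448 at PH and 874 at SC-β. RPLP1 stood at 626, 639, 421, 405, 221 and 536 TPM, and RPLP2 at 590, 515, 527, 467, 306 and 434 TPM. RPLP1 alone of these was not lower in DE than in hESCs, and it had the largest gain of all members from PH to SC-β, 1.28 on the log2 scale.

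RPL5 and RPL11 form a particle with the smallest ribosomal RNA and bind MDM2 when ribosome assembly fails. RPL5 stood at 1264 TPM in hESCs, 806 at DE, 1224 at PGT, 943 at PP, 631 at PH and 983 at SC-β, and RPL11 at 2474, 2120, 2666, 1634, 988 and 1769 TPM. Of the 8 members around the exit tunnel of the large subunit, 6 were at least 2-fold lower in PH, where 28 of all 46 large subunit genes were, and 0 in the other stages, as for the large subunit as a whole. RPSA, a small subunit protein near the mRNA exit that is also known as the laminin receptor, stood at 1474, 883, 918, 764, 508 and 643 TPM. In the mRNA exit group of RPS26, RPS28 and RPSA the median ratio was -1.19 in SC-β, with RPS28 at -0.49. In the beak group of RPS10, RPS12 and RPS27A it was -0.93. Both lay below the members' median of -0.47 and the small subunit's median of -0.58. The mRNA entry group of RPS2, RPS3, RPS15 and RPS23 had a median of -0.65, and the stalk proteins with RPL12 one of -0.48.

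Several ribosomal protein genes have a paralog outside the rule, and the share of the paralog in the summed level of the pair was followed. RPL22L1 stood at 143 TPM in hESCs, 50.4 at DE, 30.3 at PGT, 23.9 at PP, 14.4 at PH and 27.3 at SC-β. Its partner RPL22, an RNA-binding protein of the large subunit, stood at 269, 212, 264, 205, 136 and 235 TPM. RPL22L1 therefore made up 34.7% of the pair in hESCs, 19.2% in DE and 9.62% to 10.5% in the later stages.

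RPL36AL made up 34.0% of its pair with RPL36A in hESCs and 19.0% in SC-β, with 25.5%, 19.2%, 24.9% and 19.5% in DE, PGT, PP and PH. RPL39L stood at 57.8 TPM in hESCs and at 14.6 to 27.1 TPM in the other stages, 5.41% of its pair with RPL39 in hESCs and 1.56% to 3.92% after. All of RPL22L1, RPL36AL and RPL39L were thus highest in hESCs, in level and in share of the pair.

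RPL26L1 made up 3.01% to 5.43% of its pair with RPL26, RPL7L1 2.63% to 5.65% with RPL7, and RPS27L 0.431% to 1.46% with RPS27. RPL3L was at most 0.395 TPM, and RPL10L was at 0.0741 TPM in hESCs and listed at 0 in the other stages.

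**Figure D4:**
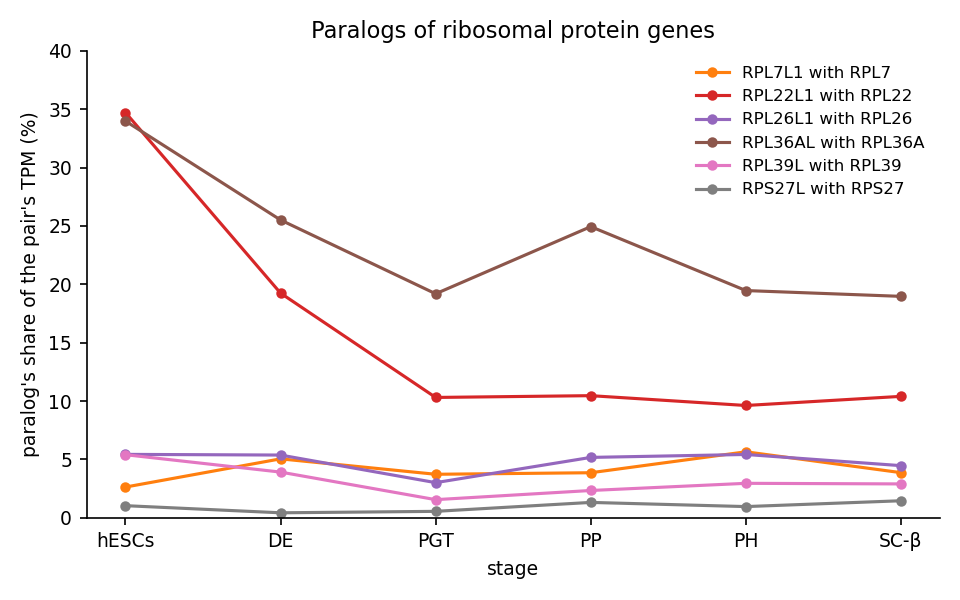
Share of the paralog in the summed TPM of the pair (%, y axis) by stage (x axis) for 6 pairs; RPL3L and RPL10L, near 0 throughout, are left out. RPL22L1 falls from 34.7% in hESCs to 10.3% in PGT and lies between 9.62% and 10.5% after it, and RPL36AL from 34.0% to 19.2%.

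Other genes of the translation machinery were set beside the members as whole lists. The 77 mitochondrial ribosomal protein genes, whose products translate the mitochondrial genome, had medians of -0.33 in DE, -0.49 in PGT, -0.57 in PP, -0.93 in PH and -0.57 in SC-β, with 3, 7, 8, 38 and 10 genes at least 2-fold lower. The 55 ribosome biogenesis factors had medians of -0.47, -0.64, -0.63, -1.24 and -0.49, with 4, 8, 7, 34 and 6 genes at least 2-fold lower. The same limit was passed by 5.55%, 10.0%, 9.63%, 18.9% and 7.08% of all names. These counts also rest on the scale, and after median-ratio rescaling they were 20, 27, 22, 38 and 43 for the mitochondrial list and 24, 26, 20, 34 and 27 for the biogenesis factors. In PGT the median was -0.11 for the cytosolic ribosomal protein genes, -0.49 and -0.64 for these lists, -0.26 for the initiation factors, 0.02 for the elongation and related factors and -0.16 for other abundant names. The 15 initiation factors had a median of -0.95 in PH, where 7 were at least 2-fold lower, and 0 were in the other stages.

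NPM1, a nucleolar chaperone of ribosome assembly, stood at 2043 TPM in hESCs, 1042 at DE, 952 at PGT, 921 at PP, 414 at PH and 952 at SC-β. NCL stood at 412 TPM in hESCs and 112 TPM in PH, and FBL, the methyltransferase of ribosomal RNA, at 175 and 47.0 TPM. Unlike most ribosomal protein genes, NPM1 was not higher in PGT than in DE.

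EEF1A1, which brings tRNA to the ribosome, stood at 3734 TPM in hESCs, 2600 at DE, 3826 at PGT, 2496 at PP, 1517 at PH and 2550 at SC-β. EEF2, which moves the ribosome along the mRNA, stood at 1722, 1883, 2042, 1364, 1160 and 1678 TPM. EEF1A1 followed the order of the ribosomal protein median apart from PGT, where it was highest. Of the 12 elongation and related factors, 2 were at least 2-fold lower in DE, 3 in PGT, 4 in PP, 5 in PH and 2 in SC-β. The same limit was passed by 5.55%, 10.0%, 9.63%, 18.9% and 7.08% of all names. After median-ratio rescaling the counts were 3, 3, 4, 6 and 5. On the deposited scale 1 factor was at least 2-fold higher in PGT and 1 in PH, beside 23.4% and 27.3% of all names.

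FAU stood at 263 TPM in hESCs, 88.7 TPM in PH and 126 TPM in SC-β. MYC, a transcription factor that drives ribosomal protein genes, stayed between 2.05 and 4.11 TPM, and MYCN was at 38.3 TPM in hESCs, 54.2 TPM in PGT and 17.9 TPM in PH. GAS5, a noncoding host of small nucleolar RNAs whose transcript also starts with a pyrimidine tract, stood at 291 TPM in hESCs, 119 in PP, 106 in PH and 170 in SC-β.

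**Figure D5:**
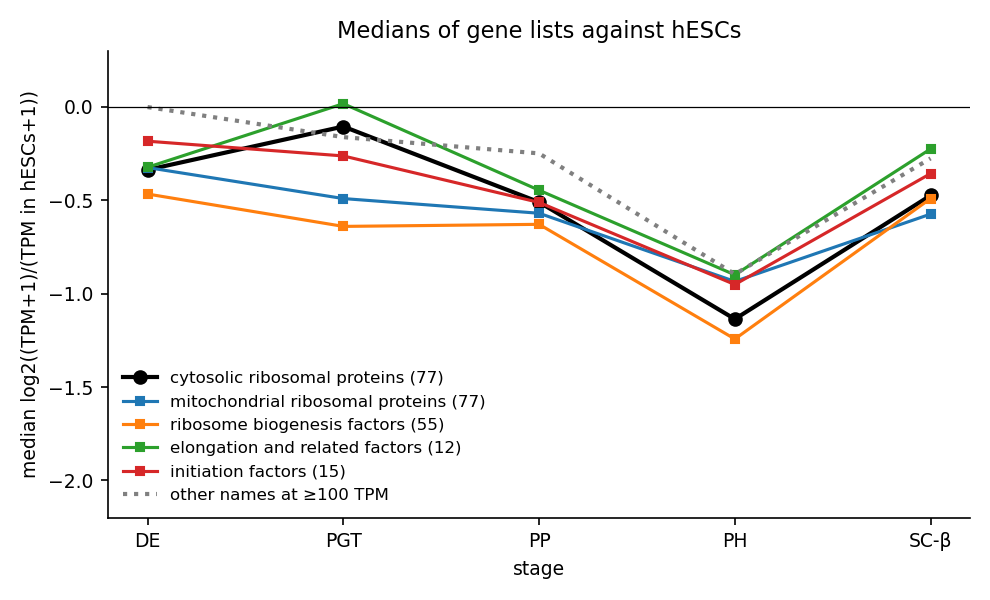
Median log2 ratio to hESCs (y axis, pseudocount of 1) by stage (x axis) for the 77 cytosolic ribosomal protein genes (black), 4 other translation lists (colours, with their number of genes) and other names at 100 TPM or more (dotted). All lines are lowest in PH; in PGT the ribosomal protein genes, at -0.11, lie above the biogenesis factors, at -0.64.

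Introns of ribosomal protein genes carry small nucleolar RNAs, which guide the modification of ribosomal RNA. By GENCODE 44, 28 of the 77 genes hold 59 such genes on the same strand, and 52 of these names are in the table. The table gives no positions, and 12 of the names have more than 1 entry, so that copies at other loci cannot be told from the hosted ones. The other 40 names summed to 570 TPM in hESCs, 415 at DE, 454 at PGT, 311 at PP, 357 at PH and 433 at SC-β, lowest in PP. The host genes had a median ratio of -1.03 in PH and the other 49 members one of -1.26, and in DE the order was the opposite, at -0.40 and -0.33.

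Ribosomal protein genes have left many processed copies in the genome, and 793 pseudogene entries in the table carry a member's name. Together they held 0.245% of all TPM in hESCs, equal to 3.25% of the members' own sum there, and between 3.50% and 4.67% of it in the other stages. RPL13P12 and RPS20P14 had the highest mean levels among them, at 93.3 and 86.4 TPM. How the counting shared reads between genes and copies is not given in the sources used here, so small differences between members are uncertain. Readthrough names overlap 3 members as well, and the largest of these, RPL36A-HNRNPH2, stood at 7.90 TPM in PP and 81.3 TPM in PGT.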

How the data were processed

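Total RNA came from Trizol extracts of H9 cells and their derivatives. The study's methods describe removal of ribosomal RNA, random priming and paired-end sequencing, while the labels also name an mRNA kit; the effect on the structural RNA share was not tested. The deposited unit is TPM, as the mean of 2 libraries a stage. The submitters' processing notes name HISAT2 2.2.0, StringTie 2.1.6 and hg38; the annotation is not given in the sources used here. The table holds 50451 entries under 49085 names; entries of 1 name were summed (231 names, RPL41 among the members). No counts or single libraries were used, so no test was run.

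Log2 ratios used a pseudocount of 1 TPM, which understates the change of low genes, and a limit of 2-fold. Positions are from GENCODE 44 and sequences from RefSeq (GRCh38.p14). CIRH1A, the RefSeq synonym of UTP4, and GNB2L1, that of RACK1, stood in for these genes. Computation used Python 3.11.15, pandas 2.3.3 and numpy 2.4.6, and was tested on simulated data. The members and lists were chosen with earlier results of these data known. Genes were named by level (8 highest, 5 lowest), ratio to hESCs (3 highest and 3 lowest a stage), departure from the members' median (5 widest, 3 narrowest), passing 2-fold where 10 or fewer did, paralogy and structural group. RPL13, RPL15, RPL29, RPS2, RPS15 and the leading pseudogenes were named after their values were seen. Some genes that this rule covers are not reported here by name; the counts, sums and medians include them.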

Additional observations from a re-analysis of the deposited data

How the results depend on the processing

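No paired analysis was possible because the deposited columns are means over the libraries of a stage, and leaving out a library could not be run for the same reason. The share of the TPM total was 12.3%, 11.1%, 9.07%, 6.69% and 8.30% at hESCs, PGT, PP, PH and SC-β without structural RNAs, and 15.5%, 11.1%, 14.1%, 12.03%, 8.75% and 10.6% in hESCs, DE, PGT, PP, PH and SC-β without structural RNAs, mitochondrially encoded genes and the 100 other most abundant names; a smaller total raises every share. Rescaling by median ratios over 13938 names lowered all genes relative to hESCs by 0.48 (DE), 0.34 (PGT), 0.25 (PP), 0.03 (PH) and 0.52 (SC-β) on the log2 scale, and the members at least 2-fold lower than hESCs then numbered 22, 6, 18 and 37 at DE, PGT, PP and SC-β. Without structural RNAs in the total they numbered 3, 2, 24 and 13 in DE, PGT, PH and SC-β, and with the wider set left out 2, 2, 21 and 13, and the median in PH was -0.82 and -0.76. The share of all names past the limit was not computed on these scales, nor at 1.5-fold. A 1.5-fold limit gave 20, 6, 32 and 27 lower in DE, PGT, PP and SC-β, and 2 higher in PGT and 1 in SC-β. Against the preceding stage (PP for SC-β), the median was 0.25 in PGT, -0.66 in PH and 0.0605 in SC-β, with 0, 0, 7 and 0 genes lower in PGT, PP, PH and SC-β; RPS26 in PP (0.088), RPS3 in SC-β (0.0209) and NPM1 in SC-β (0.0481) changed sign, since the reference differs. Chosen after seeing the data, PH as the reference of SC-β gave a median of 0.70, 0 lower and 14 higher, and leaving out the 5 genes of widest departure gave 0 lower in PGT and 1 in PP. A pseudocount of 0.1, the highest entry of a repeated name and added pseudogene entries changed no share or count of the members by over 1.5 times. They moved no members' median across the 2-fold limit. Single genes near the limit did cross it: with pseudogene entries added, RPS20 in SC-β and RPL5 in PH were less than 2-fold lower.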
